A study of Mus musculus with 6 samples.

Results

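The nuclear genes for subunits of respiratory complexes II to V were followed in infarcted mouse hearts. They were taken by symbol as the protein-coding genes named Sdha to Sdhd, Uqcr, Cox4 to Cox8 followed by a letter a to c, and Atp5. This gave 45 of the 52550 rows of the expression table, with 4 genes of complex II, 8 of complex III, 16 of complex IV and 17 of complex V. The study sequenced total RNA of hearts from C57BL/6 mice in 6 libraries, of which 3 were wild type (WT) and 3 carried the lncRNA-DRR-/- genotype (KO). The libraries are taken below as separate hearts, although the labels number replicates and name no animals. For all 6 libraries the left anterior descending coronary artery had been permanently tied at 8 weeks of age. The labels give the age as 10 weeks, that is 2 weeks after infarction. No sham-operated heart was analysed here, so every level below is that of an infarcted heart. The labels name neither the part of the heart that was taken nor the cells in which the deletion acts, and tie no row of the table to the deleted RNA. Its level was therefore not analysed and the genotypes were not checked by it.

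These genes encode the part of oxidative phosphorylation that follows complex I. Complex II, succinate dehydrogenase, feeds electrons from the citric acid cycle into ubiquinone, complex III passes them from ubiquinol to cytochrome c, and complex IV, cytochrome c oxidase, passes them to oxygen. Complexes III and IV pump protons, and complex V, the ATP synthase, uses the gradient to make ATP. Complex II is encoded wholly in the nucleus, whereas the other complexes also hold subunits encoded in mitochondrial DNA. Heart muscle is dense in mitochondria, and for some subunits of cytochrome c oxidase it uses an isoform of striated muscle (here called the heart isoform) in place of, or beside, a ubiquitous one.

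Expression values were FPKM, fragments scaled to transcript length and library size, a unit per length that is used here to set levels of genes side by side. How fragment length entered the FPKM of short transcripts, which many of these genes have, is not given in the sources used here. Ratios and shares between genes carry that uncertainty. Comparisons of 1 gene between hearts carry it too if the handling of fragment length differed between libraries, which was not tested. Depth was estimated at about 5200000 to 9400000 fragments per library, and between 14299 and 14869 genes reached 0.5 FPKM in each. All 37 mitochondrially encoded rows were listed at 0 in all 6 libraries, among them the 6 mitochondrial subunits of complexes III to V, so the balance between nuclear and mitochondrial subunits was not analysed here. The 10 cardiomyocyte markers were present in every library, with a summed level of 8084 to 10410 FPKM in the WT and 6008 to 10012 FPKM in the KO group. Within their genotypes WT replicate 1 and KO replicate 2 were lowest in these markers and highest in those of fibroblasts and scar. Xist stood at 25.6 FPKM in KO replicate 3 and at no more than 0.0742 FPKM elsewhere. Ddx3y, on the Y chromosome, was at 0.0280 FPKM there and between 13.0 and 16.2 FPKM in all others, so the expressed sex was female for KO replicate 3 and male for the rest. Of the 45 subunit genes, 43 reached 0.5 FPKM in at least 3 libraries and were tested. The 2 others were the testis isoforms Cox8c, listed at 0 in every library, and Cox7b2, listed at 0.393 FPKM in WT replicate 1 and at 0 in the other 5.

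In complex II, levels were of the same order for the 4 genes. Sdha encodes the flavoprotein that oxidises succinate and was the most abundant. Its level was 201, 217 and 218 FPKM in WT replicates 1 to 3 and 190.1, 138 and 209.9 FPKM in KO replicates 1 to 3. The KO values reached lower than the WT values, and the genotypes overlapped. Sdhb, the iron-sulphur subunit, averaged 109.9 FPKM over the 6 hearts. The membrane anchors Sdhc and Sdhd averaged 49.3 and 133 FPKM.

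In complex III, 7 of the 8 genes averaged between 109.7 and 289 FPKM, and the accessory subunit gene Uqcrb stood above them. Uqcrb was at 523, 639 and 713 FPKM in WT and at 685, 466 and 742 FPKM in KO hearts. WT replicate 1 was lowest in its genotype and KO replicate 2 in the other, a pattern shared by most of the subunit genes. The Rieske iron-sulphur protein gene Uqcrfs1 averaged 186 FPKM, and the core protein genes Uqcrc1 and Uqcrc2 averaged 154 and 218 FPKM. The hinge protein gene Uqcrh averaged 211 FPKM. Uqcr11, which encodes the smallest accessory subunit, stood at 185, 238 and 365 FPKM in WT and at 357, 257 and 334 FPKM in KO hearts, so that both genotypes covered much of the same range.

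**Figure D1:**
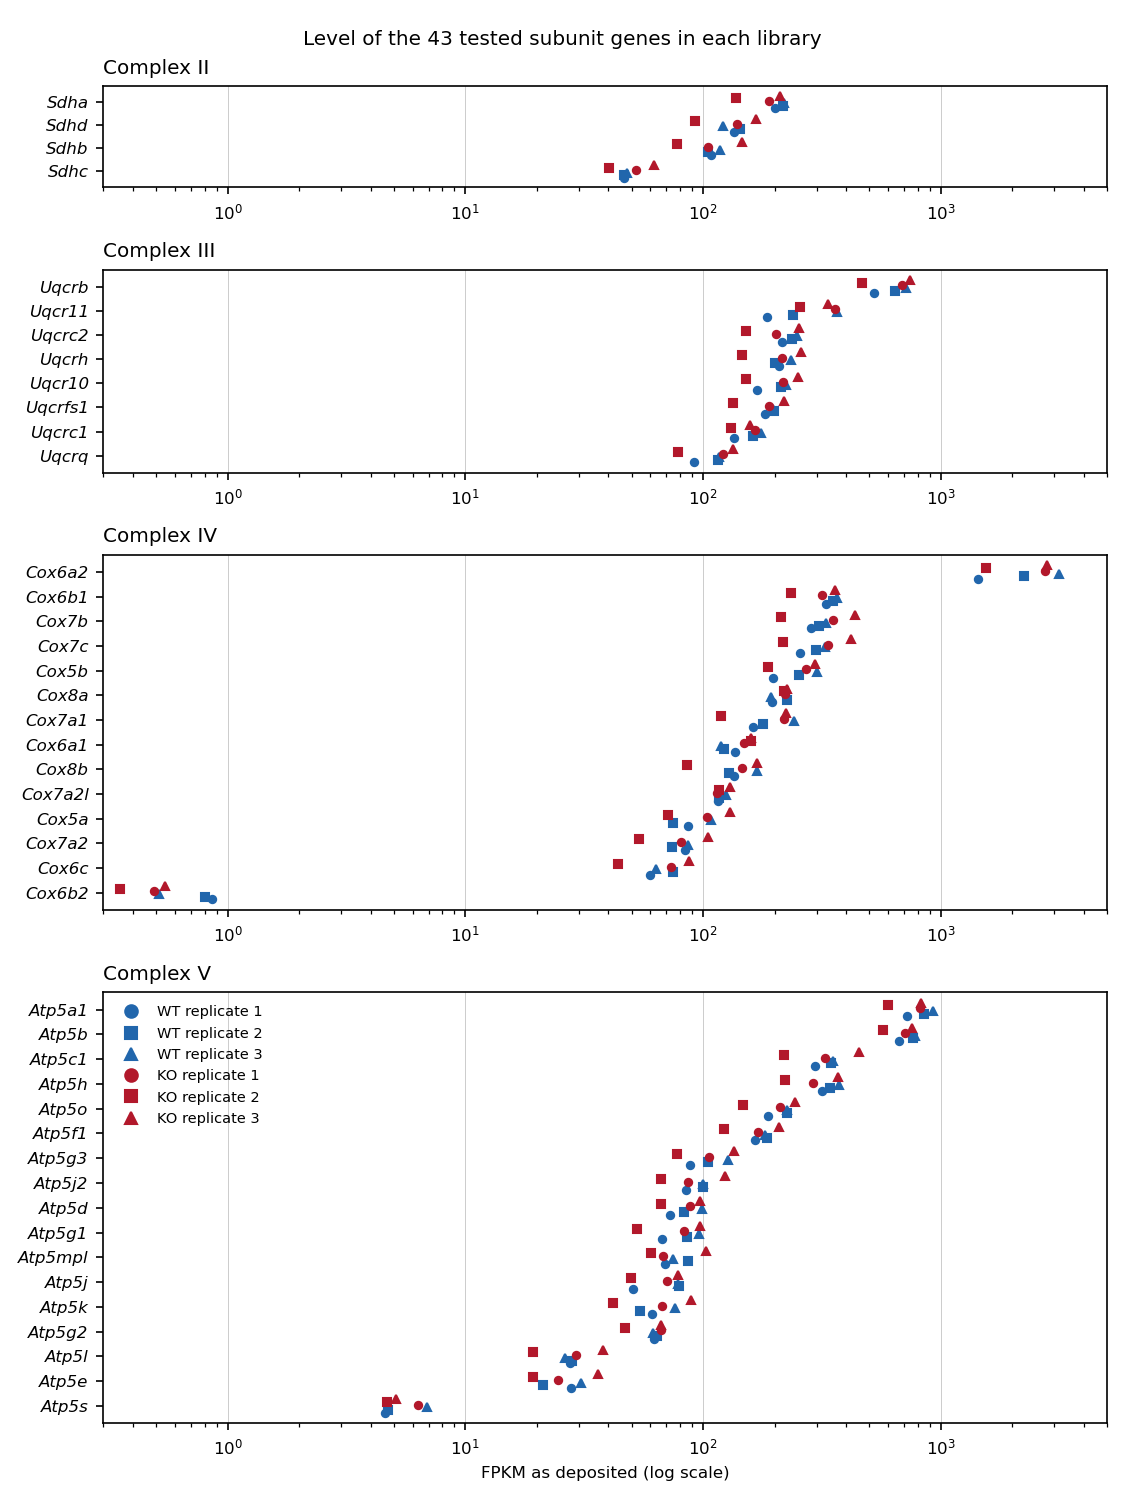
Level of each of the 43 tested subunit genes in FPKM as deposited, on a log axis, with 1 point per library (blue WT, red KO; circle, square and triangle for replicates 1, 2 and 3) and genes ordered by mean level within each complex. Cox6a2 lies far to the right of the other genes of complex IV, and the red square of KO replicate 2 is at or near the left end for most genes.

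Complex IV held both the highest and the lowest levels. Cox6a2, the heart isoform of subunit 6a (chromosome 7, 128205435 to 128206387, minus strand, GRCm38), stood at 1434, 2235 and 3126 FPKM in WT and at 2752, 1544 and 2789 FPKM in KO hearts. It was the most abundant subunit gene in every library and made up 41.3% to 56.3% of the summed FPKM of complex IV. The next genes of the complex were far lower, with Cox6b1, Cox7b and Cox7c averaging 326, 321 and 309 FPKM, and Cox5b averaging 250.5 FPKM. Cox5a and Cox6c averaged 95.8 and 67.0 FPKM. Subunits 5a, 5b, 6c and 7c have a single isoform in the mouse. Cox7a2l, which is related to subunit 7a, is known as a factor for supercomplexes of complexes III and IV. Whether its product joins these complexes in these mice was not tested. The gene stood at 116, 117 and 125 FPKM in WT and at 115, 117 and 129.7 FPKM in KO hearts. Its 6 values were close together. The testis isoform Cox6b2 passed the filter on low values only just, at 0.861, 0.802 and 0.515 FPKM in WT and at 0.489, 0.354 and 0.544 FPKM in KO hearts.

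Isoform use differed between the 3 subunits that have a heart and a ubiquitous form. For subunit 6a the heart isoform was predominant, at 9.70 to 26.2 times the level of Cox6a1, or 90.7% to 96.3% of the sum of both genes. For subunit 7a the heart isoform Cox7a1 was 1.92 to 2.80 times as high as Cox7a2, or 65.7% to 73.7% of their sum. For subunit 8 the order was the other way, with the heart isoform Cox8b at 0.392 to 0.880 times the level of the ubiquitous Cox8a, or 28.2% to 46.8% of their sum. These ranges over the 6 libraries did not overlap between the 3 subunits. Subunit 4, whose genes lie outside the naming rule, was nearly all Cox4i1. Its second isoform Cox4i2, known from lung and from hypoxic cells, made up 2.65% to 5.18% of the pair.

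The levels behind these shares were as follows. Cox6a1 (chromosome 5, 115345642 to 115348981, minus strand) stood at 136, 122 and 119 FPKM in WT and at 149, 159 and 159 FPKM in KO hearts. Each KO value was above each WT value. Cox7a1 (chromosome 7, 30184144 to 30186078, plus strand) stood at 162, 179 and 241 FPKM in WT and at 218, 119.5 and 224 FPKM in KO hearts, while Cox7a2 stood at 84.2, 73.9 and 86.2 FPKM in WT and at 80.7, 54.0 and 105 FPKM in KO hearts. In both genes KO replicate 2 was the lowest of all 6 libraries, and the genotypes overlapped. Cox8b (chromosome 7, 140898945 to 140900446, minus strand) stood at 135, 128 and 169 FPKM in WT and at 146, 85.8 and 168 FPKM in KO hearts. Cox8a (chromosome 19, 7215153 to 7217616, minus strand) stood at 195, 226 and 193 FPKM in WT and at 221, 219 and 225 FPKM in KO hearts. Cox8b was again lowest in KO replicate 2, whereas Cox8a in that library was close to the other KO hearts.

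**Figure D2:**
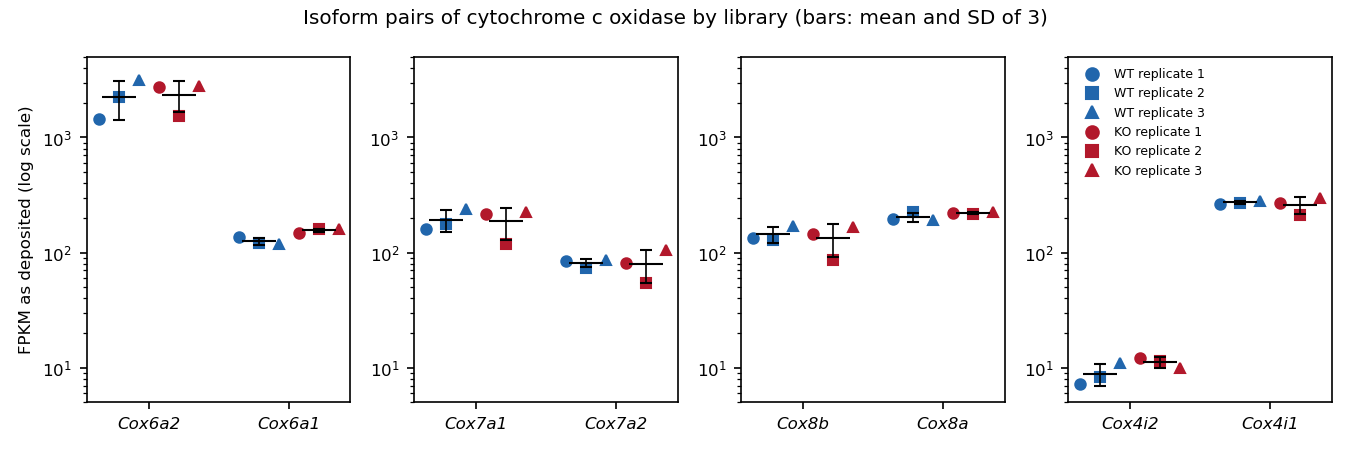
FPKM as deposited, on a log axis, of the heart (left) and ubiquitous (right) isoform of subunits 6a, 7a and 8 and of Cox4i2 and Cox4i1, with 1 point per library and bars for mean and SD (n = 3 per genotype). The gap between isoforms is wide for subunits 6a and 4, narrow for 7a, and reversed for 8, where Cox8b lies below Cox8a in all 6 libraries.

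Isoform use did not differ detectably between the genotypes. The heart isoform share was 94.2% ± 2.6 in WT and 93.4% ± 2.4 in KO hearts for subunit 6a, 70.0% ± 4.0 and 70.0% ± 2.6 for subunit 7a, and 41.3% ± 5.3 and 36.9% ± 7.7 for subunit 8 (SD, n = 3 each). The Cox4i2 share was 3.12% ± 0.58 in WT and 4.25% ± 0.98 in KO hearts. Shares overlapped between the genotypes in all 4 pairs. The log2 ratio of heart to ubiquitous isoform differed by -0.23 ± 0.48 for 6a, by -0.01 ± 0.19 for 7a and by -0.28 ± 0.34 for 8, and that of Cox4i2 to Cox4i1 by 0.43 ± 0.25 (KO minus WT ± SE). The exact permutation test on these ratios, two-sided, gave p = 0.6, 1, 0.5 and 0.2, and 0.8, 1, 0.8 and 0.8 after Benjamini-Hochberg adjustment over the 4 pairs. With 3 against 3 hearts this test cannot give a p below 0.1. A pseudocount of 0.5 was added to both genes of each ratio, so the scaling between libraries cancels nearly but not exactly. Without the pseudocount the differences were -0.23, -0.01, -0.28 and 0.45, in the same order.

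Of the isoform genes, the ubiquitous Cox6a1 and Cox8a varied little between the hearts. The heart isoforms Cox7a1 and Cox8b varied with most other subunit genes. The stretches upstream of these 4 genes are shown, a choice made after their spread was seen. They run from 250 to 31 bases before the annotated start of the RefSeq gene (GRCm38.p6), 220 bases each, 5′ to 3′ on the strand of the gene, and lie at chr5:115348989-115349208 (minus) for Cox6a1, chr19:7217647-7217866 (minus) for Cox8a, chr7:30183921-30184140 (plus) for Cox7a1 and chr7:140900477-140900696 (minus) for Cox8b. The first overlaps 1 annotated exon of another gene, and the other 3 overlap none. Only Cox8a and Cox8b are isoforms of the same subunit. Cox6a2 had no entry among the RefSeq promoters used, and Cox7a2, a ubiquitous isoform that varied with most other subunit genes, is not shown. Capitals mark matches to the motifs named after them.
Cox6a1: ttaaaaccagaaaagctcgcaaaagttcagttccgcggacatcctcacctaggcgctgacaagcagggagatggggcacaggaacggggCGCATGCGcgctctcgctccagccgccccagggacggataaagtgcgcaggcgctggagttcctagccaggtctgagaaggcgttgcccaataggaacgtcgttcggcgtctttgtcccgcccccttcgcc
Cox8a: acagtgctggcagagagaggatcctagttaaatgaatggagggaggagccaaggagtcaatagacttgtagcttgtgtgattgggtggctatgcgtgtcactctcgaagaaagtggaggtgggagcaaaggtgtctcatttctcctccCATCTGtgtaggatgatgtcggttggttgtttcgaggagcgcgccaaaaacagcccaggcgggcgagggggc
Cox7a1: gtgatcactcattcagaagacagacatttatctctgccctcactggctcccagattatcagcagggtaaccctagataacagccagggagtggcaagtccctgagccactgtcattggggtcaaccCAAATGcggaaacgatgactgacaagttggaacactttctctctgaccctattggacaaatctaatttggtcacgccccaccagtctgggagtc
Cox8b: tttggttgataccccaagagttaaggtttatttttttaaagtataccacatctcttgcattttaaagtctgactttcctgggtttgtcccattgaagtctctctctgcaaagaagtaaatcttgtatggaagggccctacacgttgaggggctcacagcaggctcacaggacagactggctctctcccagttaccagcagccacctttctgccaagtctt

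The motifs searched, on both strands, were GCATGCG (within the site of NRF1, an activator of many respiratory chain genes), CCGGAAG (the core of ETS factors such as GABP), CANNTG (the E-box of muscle factors and many others) and the MEF2 site of muscle genes. The capitals in Cox6a1 are 2 NRF1 matches, 1 on each strand, that overlap each other, and those in Cox8a and Cox7a1 are 1 E-box each. Of the subunit genes, 34 had an entry in the RefSeq table. The NRF1 letters were found in 5 of these 34 (Atp5g2, Atp5k, Atp5l, Cox6a1 and Sdhb) and in 2.43% of all 27025 windows of the same length. The ETS letters were found in 5 of 34 and in 5.04% of all windows, the E-box in 20 of 34 and in 62.0%, and the MEF2 site in 0 of 34 and in 2.67%. G and C made up 61.4% of the Cox6a1 stretch, 53.6% of that of Cox8a, 50.0% of that of Cox7a1 and 45.0% of that of Cox8b, against a median of 51.8% over all windows and of 53.2% over the 34. A match describes these letters and was not tied to binding by any measurement here.

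Complex V was led by the catalytic head. Atp5a1 and Atp5b, which encode the alpha and beta subunits that form the catalytic sites, averaged 788 and 708 FPKM and were the most abundant subunit genes after Cox6a2. Atp5a1 stood at 718, 850.5 and 924 FPKM in WT and at 815, 601 and 822 FPKM in KO hearts. KO replicate 2 was again the lowest library, and the genotypes overlapped. The genes of the central stalk, which with the head makes up the F1 part, averaged 331 FPKM for Atp5c1 (gamma, the rotating shaft), 84.4 FPKM for Atp5d (delta) and 26.6 FPKM for Atp5e (epsilon). In the peripheral stalk, which holds the head still, Atp5h, Atp5o, Atp5f1 and Atp5j averaged 318, 207, 172 and 67.9 FPKM. Atp5h stood at 315, 342 and 373 FPKM in WT and at 289.8, 220.3 and 369 FPKM in KO hearts, again with overlap. The small subunits of the membrane part averaged 93.5 FPKM for Atp5j2, 76.9 FPKM for Atp5mpl, 64.9 FPKM for Atp5k and 28.0 FPKM for Atp5l. Atp5s, which takes its place here by name and encodes a coupling factor and not a structural subunit, averaged 5.40 FPKM.

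The c ring, the rotor through which protons pass, is made of identical mature subunits that 3 genes encode. Atp5g3 took the largest share of their summed FPKM in every library (40.5% to 45.3%), followed by Atp5g1 (29.6% to 33.7%) and Atp5g2 (21.6% to 28.5%). The 3 ranges did not overlap. Atp5g1 stood at 67.5, 85.8 and 96.1 FPKM in WT and at 83.5, 52.5 and 96.8 FPKM in KO hearts. Atp5g2 stood at 62.2, 64.1 and 61.6 FPKM in WT and at 66.4, 46.9 and 66.3 FPKM in KO hearts. Atp5g3 stood at 88.4, 105 and 127 FPKM in WT and at 106, 77.9 and 135 FPKM in KO hearts. All 3 genes were lowest in KO replicate 2, and the other 5 values of Atp5g2 were nearly level. Pseudogenes with at least 95% identity over at least 100 bases exist for 14 of the 45 genes, and reads may be split between them. Their summed level was 8.01% of that of Atp5g2 and 26.3% of that of Atp5l, so the levels of these 2 genes are less certain. It was no more than 1.75% for the other genes averaging at least 1 FPKM. How reads that match more than 1 place were counted is not given, so a low copy level does not show that a gene was unaffected. Cox7c, for instance, has the copy Gm12338 at 100% identity over 192 bases, averaging 4.98 FPKM. The pseudogene sums leave out near-identical rows that are not pseudogenes, with which reads may also be shared. Examples are Gm11273 for Cox5b (99.2% over 390 bases, averaging 3.79 FPKM) and Pdzd9 for Uqcrc2 (100% over 507 bases, averaging 7.25 FPKM).

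As a share of the summed FPKM of the 45 genes, complex IV took 40.2% to 46.7%, complex V 29.3% to 34.3%, complex III 19.0% to 20.2% and complex II 4.22% to 5.68%. The order was the same in all 6 libraries. The sum itself was 8638, 10385 and 11948 FPKM in WT replicates 1 to 3 and 10986, 7513 and 12187 FPKM in KO replicates 1 to 3, so the genotypes overlapped. The sums of each complex overlapped as well. That of complex II was 490.3, 512 and 505 FPKM in the WT group and 486, 349 and 586 FPKM in the KO group. The mean sum of complex III was 1996 ± 282 FPKM in the WT and 2006 ± 437 FPKM in the KO group, that of complex IV was 4492 ± 1041 and 4642 ± 1210 FPKM, and that of complex V was 3334 ± 335 and 3107 ± 675 FPKM (SD, n = 3 each). In RNA from heart tissue, fewer cells of a type and less RNA per cell cannot be told apart.

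No subunit gene passed the test between KO and WT hearts. The test was limma's on log2(FPKM / factor + 0.5), where factor is a scaling factor per library, with Benjamini-Hochberg adjustment over the 14656 genes tested. Every log2 difference below is KO minus WT on that scale, with n = 3 per genotype. Of all tested genes 55 (0.375%) passed an adjusted p of 0.05, 40 higher and 15 lower, and 0 of the 43 subunit genes were. At an unadjusted p under 0.05 the counts were 1243 genes (8.48%) and 1 subunit gene. The scaled values of the genotypes did not overlap in 2056 genes (14.0%) and in 1 subunit gene. That gene was Cox6a1 in both counts. Of the 43 genes, 17 were higher and 26 lower in KO hearts, with a median log2 difference of -0.03 against -0.004 over all tested genes. The differences ran from -0.33 for Cox6b2 to 0.32 for Uqcr11, and the smallest adjusted p was 0.481.

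Cox6a1, the ubiquitous isoform of subunit 6a, averaged 126 ± 9 FPKM (SD) in the WT and 156 ± 6 FPKM in the KO group. Its log2 difference was 0.32 ± 0.12 with a 95% interval of 0.05 to 0.59 (limma adjusted p = 0.481, unadjusted p = 0.026). It was higher in 3 of 3 KO hearts and did not pass the correction. Its heart counterpart Cox6a2 averaged 2265 ± 846 FPKM in the WT and 2362 ± 708 FPKM in the KO group. The log2 difference of Cox6a2 was 0.09 ± 0.42, with an interval of -0.88 to 1.07 that is the widest among the subunit genes and holds both a fall and a rise of nearly 1 on this scale.

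The named genes of the other complexes gave intervals that included 0. Sdha differed by -0.25 ± 0.21 (interval -0.75 to 0.25), Uqcrb by 0.01 ± 0.27 (-0.62 to 0.64) and Uqcr11 by 0.32 ± 0.31 (-0.41 to 1.05), with limma adjusted p = 0.828, 0.996 and 0.849. The estimate for Sdha was -0.03 without KO replicate 2, and that for Uqcr11 was 0.05 without WT replicate 1 and 0.63 without WT replicate 3. In complex V, Atp5a1 differed by -0.15 ± 0.24 and Atp5h by -0.24 ± 0.24, with limma adjusted p = 0.918 and 0.849, and Atp5h was at -0.01 without KO replicate 2. The X-linked gene Cox7b, which encodes the ubiquitous form of subunit 7b, stood at 285, 308 and 330.0 FPKM in WT and at 351, 213 and 436 FPKM in KO hearts. The female KO heart, replicate 3, was the highest and KO replicate 2 the lowest, and the log2 difference was 0.07 ± 0.30 (limma adjusted p = 0.972). This order is not particular to Cox7b. On the scaled values KO replicate 3 was the highest in 24 of the 43 tested subunit genes, and KO replicate 2 the lowest in 37. The part of sex in this level was not tested.

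By complex, the median log2 difference was -0.03 for complex II with 1 gene higher and 3 lower, and -0.02 for complex III with 4 higher and 4 lower. It was 0.02 for complex IV with 9 higher and 5 lower of 14 tested. For complex V it was -0.05 with 3 higher and 14 lower. The 14 lower genes included all 5 of the F1 part (head and central stalk), all 3 of the c ring and all 4 of the peripheral stalk, at differences of -0.24 to -0.01 whose intervals all included 0. These genes vary together across the libraries, so their shared sign is not a count of separate results. The sign turned with the libraries used. Without KO replicate 2, 40 of the 43 genes were higher in KO hearts, with a median of 0.20, and without KO replicate 3, 39 of 43 were lower, with a median of -0.22.

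**Figure D3:**
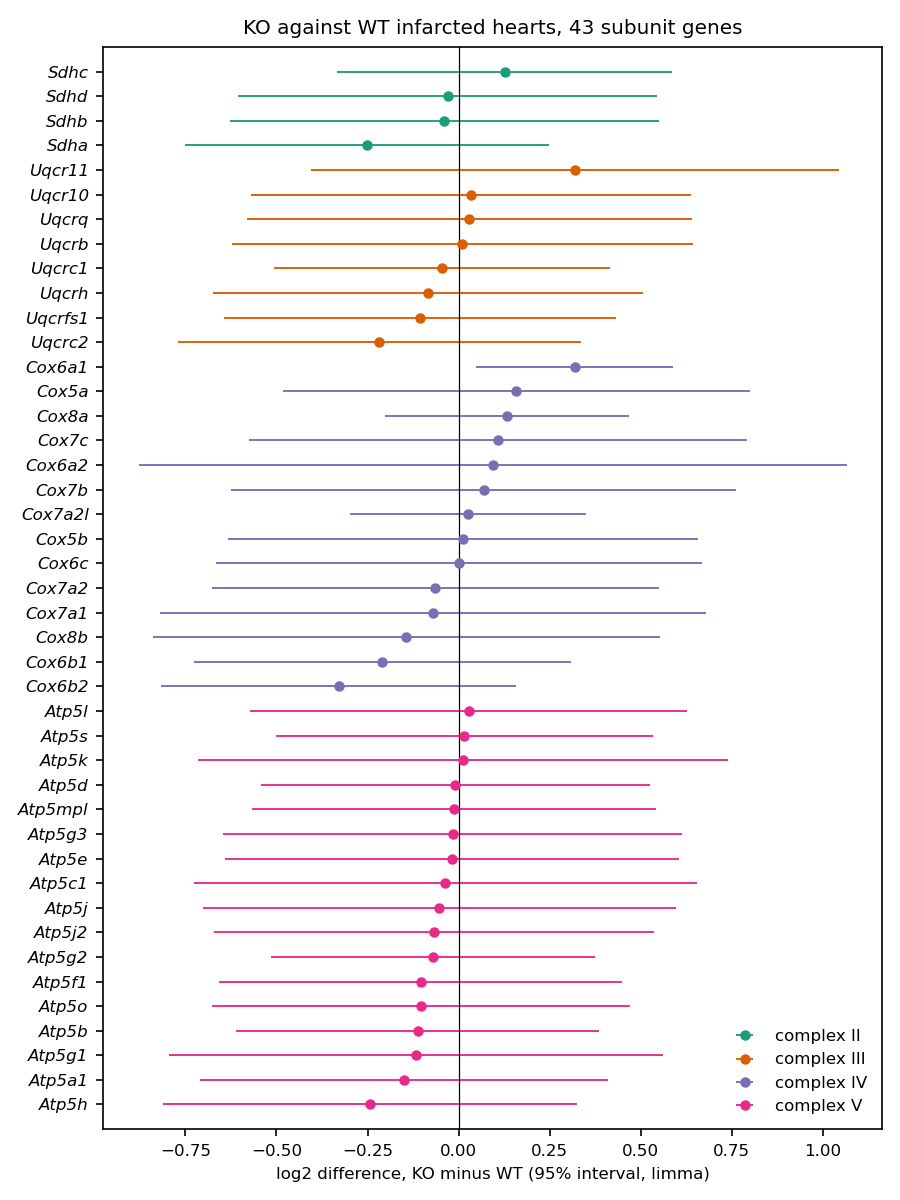
Log2 difference between KO and WT hearts (KO minus WT, points) with its 95% interval from limma (lines) for the 43 tested subunit genes, coloured by complex. The interval of Cox6a1 alone lies to the right of 0, and its adjusted p is 0.481.

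The spread between hearts of the same genotype was wider for the subunit genes than for most genes. The SD within genotype, on the scaled log2 values, had a median of 0.38 over the 43 genes and of 0.22 over all tested genes, and it was above the latter in 39 of the 43. An SD above 0.38 was found in 17.4% of all tested genes. From the lowest to the highest of the 6 libraries the median range was 0.89 on the log2 scale for the subunit genes and 0.61 for all tested genes. This rested largely on KO replicate 2, without which the median SD was 0.23 for the subunit genes and 0.19 for all tested genes.

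The subunit genes moved together between libraries. Each gene's deviation from its own mean over the 6 libraries had a median over the 43 genes of -0.22, 0.08 and 0.22 in WT replicates 1 to 3 and of 0.15, -0.55 and 0.33 in KO replicates 1 to 3. On these scaled values WT replicate 1 was the lowest WT heart in 37 of the 43 genes and KO replicate 2 the lowest KO heart in 43 of 43. Both held in 37 genes, against 17.3% of all tested genes. The 6 exceptions were Cox5a, Cox6a1, Cox6b2, Cox7a2, Atp5e and Atp5k. Over all 6 libraries KO replicate 2 was the lowest in 37 genes, and KO replicate 3 was the highest in 24.

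**Figure D4:**
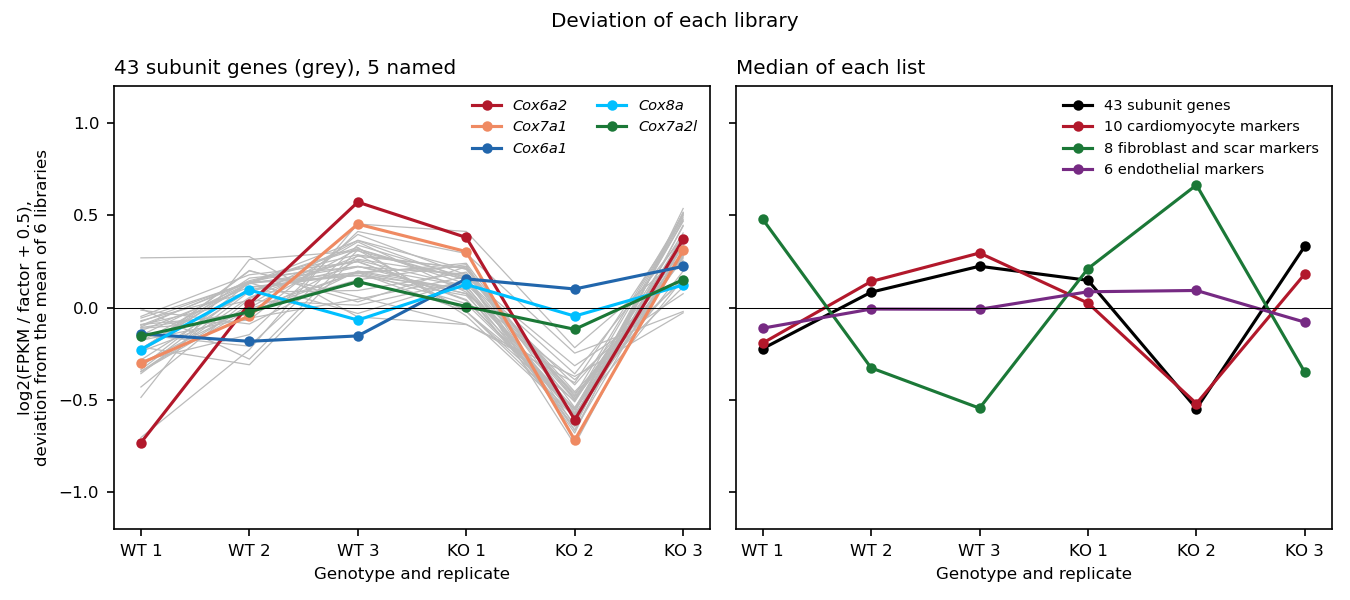
Deviation of log2(FPKM / factor + 0.5) from the mean of the 6 libraries, for each of the 43 subunit genes with 5 named (left) and as the median of the subunit genes and of 3 marker lists (right). The median of the subunit genes and that of the cardiomyocyte markers are both lowest in KO replicate 2 (-0.55 and -0.52), where the fibroblast and scar markers are highest (0.66).

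Markers of cardiomyocytes and of the scar moved with this pattern. The median deviation of the 10 cardiomyocyte markers was -0.19, 0.14 and 0.30 in WT and 0.02, -0.52 and 0.18 in KO hearts. That of the 8 fibroblast and scar markers, such as the collagen genes Col1a1 and Col3a1, was 0.48, -0.33 and -0.55 in WT and 0.21, 0.66 and -0.35 in KO hearts. The same 2 hearts that were lowest in their genotype for the subunit genes were thus lowest for cardiomyocyte markers and highest for scar markers. The summed level of the scar markers was 1095 to 2218 FPKM in the WT and 1276 to 2559 FPKM in the KO group, with none of the 8 at 0. The median over the 6 endothelial markers lay between -0.11 and 0.09. Kdr among them averaged 40.9 ± 2.3 FPKM in the WT and 27.4 ± 1.0 FPKM in the KO group (SD). That difference did not pass the correction (log2 difference -0.55, limma adjusted p = 0.195). All the other endothelial markers went the other way, with log2 differences of 0.02 (Cdh5) to 0.18 (Tie1). Other lists took other courses. The median of the 8 macrophage and leucocyte markers was 0.60, 0.13 and -0.10 in WT and -0.26, 0.02 and -0.41 in KO hearts, and that of the 5 erythroid markers was 0.75, 0.13 and -0.02 in WT and -0.54, -0.57 and 0.41 in KO hearts. That of the 4 smooth muscle markers was 0.01, -0.33 and -0.03 in WT and 0.33, -0.001 and -0.04 in KO hearts. WT replicate 1 was thus also the WT heart with the highest macrophage and erythroid markers, while KO replicate 2 was the KO heart with the lowest erythroid markers. Within the macrophage list Cd74 and Fcgr1 were lower in KO hearts by log2 differences of -0.96 and -0.78, which did not pass the correction (limma adjusted p = 0.213 and 0.307). The part of cell composition in the subunit genes was not tested. Markers of skeletal muscle, which also uses the heart isoforms, summed to 31.1 FPKM in WT replicate 1, 11.1 FPKM in KO replicate 1 and at most 2.99 FPKM in the other 4. Of the 3 brown fat genes listed, Ucp1 and Elovl3 were at 0 in every library. The third, Cidea, stood at 12.7, 14.5 and 15.0 FPKM in WT and at 20.5, 16.9 and 21.9 FPKM in KO hearts. Each KO value of Cidea was above each WT value, and the difference did not pass the correction (log2 difference 0.48, limma adjusted p = 0.473).

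Not all subunit genes followed this pattern to the same degree. Cox6a2 had the widest range, 1.30 on the log2 scale with an SD within genotype of 0.61, followed by Atp5k with a range of 1.22 and Cox7a1 with 1.17. The 3 genes of narrowest range were all of complex IV, Cox6a1 at 0.41, Cox8a at 0.35 and Cox7a2l at 0.31, with SDs of 0.05, 0.13 and 0.14. Cox6a1 and Cox8a are the ubiquitous counterparts of Cox6a2 and Cox8b, and Cox8b had a range of 1.14. The ubiquitous isoform of subunit 7a was not among them, since Cox7a2 had a range of 1.07 and an SD of 0.40. As a result the heart share was lowest in KO replicate 2 for subunits 6a (90.7%) and 8 (28.2%), whereas for subunit 7a it was 68.9% in that library and lowest in WT replicate 1 (65.7%).

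Set against the cardiomyocyte markers of the same library, the summed FPKM of the 45 genes was 1.07, 1.10 and 1.15 times that of the 10 markers in WT and 1.28, 1.25 and 1.22 times in KO hearts. These ratios did not overlap, and they were formed after the values of both lists had been seen. They carry the level of the markers as well. Each of the 10 markers had a negative log2 difference, from -0.09 for Tnni3 to -0.41 for Mybpc3. Mybpc3 stood at 473, 486 and 449 FPKM in WT and at 337, 329 and 389 FPKM in KO hearts, and did not pass the correction (limma adjusted p = 0.522). Scaling every gene to these markers moved the median log2 difference of all tested genes from -0.004 to 0.16, and that of the 43 subunit genes was then 0.16 as well, with 38 higher and 5 lower.

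Of the other genes of the pathway, taken from fixed lists, 0 of the 58 tested were called, against the 0.375% of all genes given above. Of these 58, 29 were higher and 29 lower. An unadjusted p under 0.05 was found in 2 of them, against 8.48% of all tested genes. The scaled values of the genotypes did not overlap in 4, against 14.0% of all tested genes. Among the subunits outside the naming rule, Cox4i1, the main isoform of subunit 4, stood at 267, 272 and 279.6 FPKM in WT and at 268, 211 and 297 FPKM in KO hearts. Cyc1, which encodes cytochrome c1 of complex III, stood at 202, 219.0 and 221 FPKM in WT and at 199.9, 168 and 241 FPKM in KO hearts. Both genes were lowest in KO replicate 2, like the subunit genes. Cox4i2 stood at 7.26, 8.24 and 10.9 FPKM in WT and at 12.1, 11.6 and 9.92 FPKM in KO hearts, with a log2 difference of 0.36 ± 0.20 (limma adjusted p = 0.708). Cox4i2 was lowest in WT replicate 1 but second highest in KO replicate 2. Cycs, somatic cytochrome c, differed by 0.20 ± 0.24 (limma adjusted p = 0.877).

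Among assembly factors the smallest p was that of Cox19, which takes part in copper delivery to cytochrome c oxidase. It stood at 8.27, 7.99 and 6.74 FPKM in WT and at 4.70, 5.53 and 5.85 FPKM in KO hearts, with no overlap. Its log2 difference was -0.47 ± 0.12 (limma adjusted p = 0.288), so it did not pass the correction. The other gene at an unadjusted p under 0.05, Pet117, was listed at 8.33 FPKM in WT replicate 1 and near 0 in the other 2 WT hearts, and its estimate rests on those values. Of the 25 complex IV assembly genes 14 were higher and 11 lower, with a median of 0.05. The gene of smallest p was Sdhaf4 among 4 for complex II (-0.25 ± 0.29), Ttc19 among 6 for complex III (-0.32 ± 0.15) and Fmc1 among 5 for complex V (0.46 ± 0.24), with limma adjusted p = 0.871, 0.657 and 0.695. Of 13 transcriptional regulators of mitochondrial genes, 6 were higher and 7 lower, with a median of -0.0002. Esrrg, a nuclear receptor that drives oxidative genes in the heart, had the smallest p among them and differed by -0.28 ± 0.18 (limma adjusted p = 0.762).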

How the data were processed

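Per the labels, total RNA of infarcted hearts went into TruSeq libraries. Genotype and replicate number come from the sample titles. No label names animals, litters or batches, so p-values cover only the spread among these libraries. The authors' table, titled as counts, holds FPKM per gene as deposited. Bowtie 0.12.2 and the builds mm8 and mm9 stand in the submitters' processing notes without a role. How FPKM was computed and whether strand was used is not given in the sources used here. FPKM of the short transcripts common among these genes depends on how fragment length was handled, which is also not given. No column belonged to samples outside the series. Of 52550 rows, 52403 matched GENCODE M21 (GRCm38), 93.3% with the same version, and symbols and coordinates come from it. A second annotated gene called Atp5o was not analysed here.

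The 14656 genes at or above 0.5 FPKM in at least 3 libraries were fitted with limma 3.58.1 in R 4.3.3 on log2(FPKM / factor + 0.5), with genotype as the only term, a mean-variance trend and empirical Bayes, two-sided, and called at a Benjamini-Hochberg adjusted p under 0.05. The log2 scale with this pseudocount understates changes of low genes. Factors (0.949 to 1.07) were unweighted trimmed means of log2 ratios, with trims of 0.3 and 0.05. The fit was tested on simulated data. Depth was taken from the most frequent FPKM times length in single-transcript genes and is approximate. Pseudogene copies were found with blastn 2.17.0. Named genes were the isoform pairs, the c-ring genes, the testis isoforms, Cox7b, and in each complex the genes of highest level, smallest p and largest difference, plus, outside the members, Cox4i1, Cox4i2, Cyc1 and the gene of smallest p in each list. Other genes named were chosen after their values were seen. The members and lists were chosen with earlier results of these data known. Alternatives were other scalings, filters and pseudocounts, a robust fit, replicate number as a block, leaving out each library and, added after seeing the data, scaling to cardiomyocyte markers.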

Additional observations from a re-analysis of the deposited data

How the results depend on the processing

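No subunit gene was called in any of the settings tried, and the smallest adjusted p of a subunit gene over all of them was 0.386 (limma, Cox6a1 without KO replicate 2). The replicate numbers were not taken to pair the hearts, because no label says that they do. Deviations of same-numbered hearts correlated across genes at 0.01, -0.04 and 0.18. Those of the other pairs of a WT and a KO heart correlated at -0.20 to 0.19. Each deviation is from a mean of only 3 hearts, so these values cannot show whether same-numbered hearts shared a batch or litter. With the replicate block 24 genes were called higher and 18 lower. An unadjusted p under 0.05 was then found in 1208 of all tested genes and in 0 subunit genes. In addition 17 genes were called higher and 3 lower with no filter. Leaving out each library gave 9 to 27 higher and 3 to 9 lower genes. An unadjusted p under 0.05 was then found in 836 to 1398 genes, of which 0 to 2 were subunit genes. The median difference of the subunit genes was -0.22 to 0.20, and their median SD was 0.23 (without KO replicate 2) to 0.43. Cox6a1 was not under an unadjusted p of 0.05 without WT replicate 2, WT replicate 3, KO replicate 1 or KO replicate 3, nor with the replicate block; the gene counted without WT replicate 3 was Uqcr11.

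The log2 differences of summed FPKM (KO minus WT) were -0.11 for complex II, 0.01 for III, 0.05 for IV, -0.11 for V and -0.02 for all 45 genes. Leaving out each library gave -0.29 to 0.15, -0.15 to 0.24, -0.17 to 0.33, -0.27 to 0.12 and -0.19 to 0.24. Complex III was at -0.0076 as deposited, at -0.0033 with upper-quartile scaling and at -0.0077 as a mean of log2 values. Leaving out each library, the isoform log2 ratios ranged from -0.58 to 0.080 for 6a, -0.15 to 0.12 for 7a, -0.46 to 0.0010 for 8 and 0.27 to 0.62 for Cox4i2 to Cox4i1. The sign turned when certain single libraries were left out, but not with every library, for Atp5a1 (-0.30 to 0.045), Atp5g1 (-0.31 to 0.19), Atp5g2 (-0.18 to 0.14), Atp5g3 (-0.22 to 0.24), Cox4i1 (-0.20 to 0.11), Cox6a2 (-0.25 to 0.42), Cox7a1 (-0.24 to 0.27), Cox7a2 (-0.30 to 0.24), Cox7b (-0.17 to 0.41), Cox8b (-0.35 to 0.19), Cyc1 (-0.23 to 0.10), Sdhaf4 (-0.47 to 0.024) and Uqcrb (-0.16 to 0.26). For Atp5a1, Atp5g2, Cox4i1, Cyc1 and Sdhaf4 the turn came only without KO replicate 2. The sign held but the value moved by over 1.5 times for Sdha (-0.39 to -0.03), Uqcr11 (0.05 to 0.63), Atp5h (-0.44 to -0.01), Cox8a (0.05 to 0.21), Cox4i2 (0.19 to 0.55), Cycs (0.03 to 0.42), Fmc1 (0.29 to 0.72), Esrrg (-0.43 to -0.16) and Ttc19 (-0.42 to -0.20). Uqcrb was at -0.0033 as deposited.

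Scaling to the cardiomyocyte markers gave 21 genes higher and 8 lower. With it 650 of the 14656 tested genes had an unadjusted p under 0.05, 2 of them subunit genes (Uqcr11 and Cox6a1). The log2 differences of summed FPKM were then 0.081 for complex II, 0.079 for complex V and 0.17 for all 45 genes. The sign turned for Atp5a1 (0.036), Atp5g1 (0.068), Atp5g2 (0.11), Atp5g3 (0.17), Cox4i1 (0.11), Cox7a1 (0.12), Cox7a2 (0.12), Cox8b (0.041) and Cyc1 (0.11). The causes of these changes were not tested. With 3 hearts per genotype the 95% intervals of the subunit genes reached from 0.27 (Cox6a1) to 0.97 (Cox6a2) log2 units to either side of the estimate, with a median of 0.59, and what each gene's data could detect differs accordingly.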
